A study of Mus musculus with 12 samples.

Results

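The effect of a Nop16 guide on the transcriptome of stimulated B cells was read from 6 RNA-seq libraries of CH12F3-2A, a line of mouse B lymphoma cells that expresses IgM and is able to switch in culture to IgA. They are 3 libraries of the group sgNop16_CIT and 3 of the group sgCtr_CIT, of 12 libraries in the series, and all genes that passed a count filter were described, 16794 of 56941. In both groups cells were transfected with a Cas9 plasmid that carried a guide, selected with puromycin for 72 h, and then given CIT for 24 h. CIT is a mixture of anti-CD40L (1 μg/ml), IL-4 (20 ng/ml) and TGF-β (1 ng/ml), in the submitters' terms. The groups differ in the guide, which was directed against Nop16 in sgNop16 and was non-targeting in sgCtr. The other 6 libraries, 3 each of sgNop16_no and sgCtr_no, are the same cells without CIT and served here to show where the difference between guides depended on stimulation. The labels call the libraries of a group biological replicates and do not say whether they came from separate transfections. Nothing in the labels says that single clones were picked. Only 1 guide against Nop16 is described, so the loss of Nop16 and other effects of that guide cannot be told apart.

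Class switch recombination exchanges the µ constant region of the immunoglobulin heavy chain for another one. Double-strand breaks are made in the switch regions, and end joining connects the µ switch region to the acceptor. CD40 signals, IL-4 and TGF-β together induce transcription of the α region in this line. NOP16 is a nucleolar protein that takes part in the assembly of the large ribosomal subunit, and its gene is known as a MYC target. The question of the comparison was what the Nop16 guide does to the transcriptome of cells in which switching to IgA was being induced.

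Total counts lay between 43204940 and 47080816 in the sgCtr_CIT libraries and between 38866418 and 48615177 in the sgNop16_CIT libraries. Levels are given as CPM, a level relative to the library total scaled with TMM factors, in the order of libraries 1, 2 and 3. Differences are log2 differences of sgNop16_CIT minus sgCtr_CIT with the standard error of the model. A gene was called where the quasi-likelihood test of edgeR, adjusted over all tested genes, gave a p under 0.05. The fit took in all 12 libraries, so the p-values rest on the spread between the 3 libraries within each of the 4 groups. All 8 B cell markers on the list passed the count filter, a low bar that does not identify the line. Genes were grouped by 42 lists with 978 genes, of which 876 were tested.

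Nop16 mRNA (ENSMUSG00000025869) was modestly lower with the Nop16 guide. Its level was 78.8, 73.1 and 79.3 CPM in the sgCtr_CIT libraries and 64.7, 66.3 and 66.2 CPM in the sgNop16_CIT libraries. Every sgNop16_CIT library lay below every sgCtr_CIT library. The log2 difference was -0.23 ± 0.04 (adjusted p = 0.00455, between 8.23e-05 and 0.0274 over the alternatives other than a 1.5-fold minimum). Without CIT it was -0.31 ± 0.04, and the 2 states did not differ detectably (interaction 0.08 ± 0.06, adjusted p = 0.645). The sources used here do not give the guide's target site. Edited alleles can still be transcribed, so the mRNA does not measure how many cells were edited. In bulk libraries such as these, fewer cells that express a gene and less RNA per cell cannot be told apart. Of 13 tested genes whose start lies within 500 kb of Nop16, 1 was called (7.69%, beside 6.16% of all tested genes), Simc1 (0.29 ± 0.08), whose exons overlap those of 4833439L19Rik on the opposite strand. Higd2a, the nearest neighbour, had a difference of -0.03 ± 0.06.

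In all, 1034 of 16794 genes were called (6.16%), 569 of them higher (3.39%) and 465 lower (2.77%) in sgNop16_CIT. The differences were small. The median was 0.21 among genes called higher and -0.27 among genes called lower, against 0.01 over all tested genes. At least 1.5-fold differences were seen for 45 called genes that were higher and 65 that were lower. The 3 libraries of each guide did not overlap for 1031 of the called genes, while they did not overlap for 24.1% of all tested genes. Called genes were mostly well expressed, with a median of 101.7 CPM for those higher and 81.7 CPM for those lower, against 15.2 CPM over all tested genes. The count fell whichever library was left out. Fits that left out 1 of the 6 libraries called between 617 (without sgNop16_CIT library 2) and 723 genes (without sgNop16_CIT library 1). The larger share of calls was higher with TMM (55.0%), RLE size factors (54.9%) and DESeq2 (57.8%) and lower with plain library totals, where 482 genes were higher and 497 lower.

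**Figure D1:**
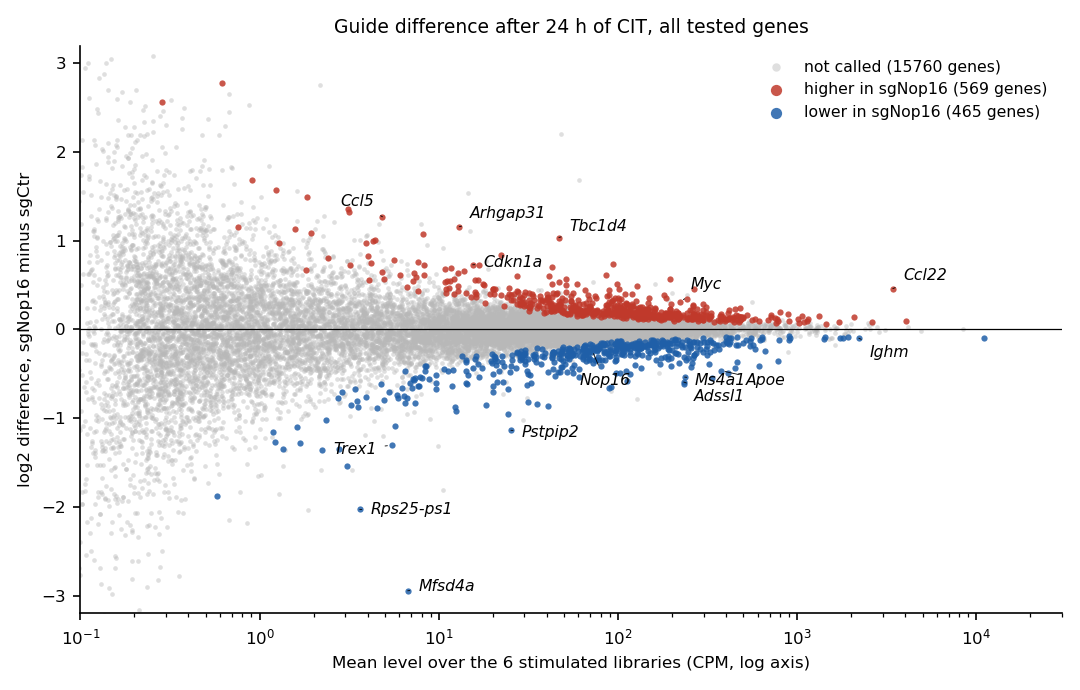
Log2 difference between sgNop16_CIT and sgCtr_CIT (vertical axis) against the mean level over the 6 stimulated libraries (CPM, log axis), 1 point a gene, with 143 genes beyond the axes not shown, 7 of them called. Red genes were called higher and blue genes lower; most called genes lie within 1 log2 unit of 0 and their median level, 101.7 CPM for genes called higher and 81.7 CPM for genes called lower, is above the 15.2 CPM of all tested genes.

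Among called genes that reached 5 CPM in the higher group and whose libraries did not overlap, the 12 largest decreases lay between -2.95 and -0.81 on the log2 scale. Pstpip2, an adaptor of the actin cytoskeleton, was at 36.7, 34.6 and 32.8 CPM with the control guide and at 14.8, 15.8 and 16.7 CPM with the Nop16 guide. The libraries of the guides were well apart (-1.14 ± 0.05, adjusted p = 9.47e-09). Pstpip2 was 1 of 2 genes called against a 1.5-fold minimum. Ppp1r3b, a glycogen-targeting subunit of protein phosphatase 1, was at 36.1, 33.9 and 26.6 against 16.1, 17.8 and 16.1 CPM (-0.95 ± 0.10). Wipf3, a WASP-interacting protein gene, was at 24.4, 23.7 and 22.6 against 12.3, 13.7 and 13.2 CPM (-0.85 ± 0.05). Both genes were also lower without CIT. Differences of the same direction were found for Nxph4 (neurexophilin, -1.08 ± 0.15), Slc45a3 (a solute carrier, -0.91 ± 0.14), Adamts14 (a secreted protease, -0.87 ± 0.11), Zfp831 (-0.83 ± 0.14) and Rab37 (a Rab GTPase, -0.81 ± 0.16). Bcl2l14 had -0.89 ± 0.21, a call lost in 3 of the 6 fits without 1 library (adjusted p up to 0.0800).

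The 3 largest of the 12 decreases were at low or uneven levels. Mfsd4a, a gene of the major facilitator superfamily of transporters, was at 16.7, 10.04 and 8.85 CPM with the control guide and at 1.30, 1.77 and 1.52 CPM with the Nop16 guide (-2.95 ± 0.57). Its 3 control libraries differed among themselves, and the call ended with robust dispersion estimates (adjusted p = 0.0564). The pseudogene Rps25-ps1 was at 3.43, 3.19 and 10.8 against 1.05, 1.38 and 1.84 CPM, with sgCtr_CIT library 3 far above the other two, and lost its call in 3 of the 6 fits without a library (adjusted p up to 0.114). Trex1, the main cytosolic DNA exonuclease, was at 7.93, 8.84 and 6.46 against 3.40, 1.71 and 4.33 CPM (-1.31 ± 0.25). It shares annotated exons with Atrip on the same strand, so its reads may be divided between them. Rps25-ps1 resembles its parent gene, and its count is uncertain for that reason.

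The 12 largest increases by the same rule lay between 0.75 and 1.27 on the log2 scale. Tbc1d4, a Rab GTPase activator known from insulin-regulated glucose uptake, was at 32.5, 29.3 and 30.1 CPM with the control guide and at 61.1, 63.8 and 63.5 CPM with the Nop16 guide (1.04 ± 0.09, adjusted p = 4.83e-06). Without CIT its difference was 1.21 ± 0.10. Rangrf, a Ran-binding factor gene whose exons overlap Slc25a35 on the opposite strand, was at 16.7, 15.3 and 15.99 against 27.2, 26.8 and 31.9 CPM (0.84 ± 0.08). Its difference without CIT was 0.06 ± 0.08. Arhgap31, a GTPase activator, was at 7.22, 7.43 and 9.47 against 18.5, 15.02 and 20.3 CPM (1.16 ± 0.17). Gja1 (connexin 43, 0.99 ± 0.20), Mt2 (metallothionein, 0.97 ± 0.20) and Rnf225 (0.75 ± 0.16) were also higher and kept their calls in all 6 fits without a library. The remaining 6 of the 12 largest increases did not. Ccl5 (1.27 ± 0.34) and Vcam1 (1.07 ± 0.30) lost the call in 6 of the 6 such fits, B9d1 (0.83 ± 0.21) and Havcr2 (0.78 ± 0.21) in 5, and Emp1 (1.00 ± 0.25) and Pla1a (0.76 ± 0.19) in 4.

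The break response and end joining of switch recombination were represented by 26 tested genes. In edgeR 0 of them were called, beside 6.16% of all tested genes. For 26 genes a count of 0 is close to that share. At an unadjusted p under 0.05, 2 were lower, and 1 was called lower with DESeq2. The median difference over the 26 genes was -0.0091, beside 0.01 over all tested genes. The smallest p among them was that of Shld1, a shieldin subunit, with -0.66 ± 0.19 (adjusted p = 0.0543), followed by the ligase gene Lig4 with -0.53 ± 0.18 (adjusted p = 0.11).

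Among the 8 heavy chain constant genes 1 was higher and 2 lower with the Nop16 guide, beside 3.39% and 2.77% of all tested genes. Without CIT 0 of the 8 were higher and 3 lower, beside 1.79% and 1.53%. The interaction was called for 0 of them, beside 2.13% of all tested genes, and for 8 genes 0 is close to that share. Igha, the acceptor of the switch to IgA, was at 978, 1029 and 990.4 CPM in sgCtr_CIT and at 942, 961 and 946 CPM in sgNop16_CIT. The libraries did not overlap, yet the difference of -0.07 ± 0.02 missed the threshold (adjusted p = 0.0614, between 0.00998 and 0.264 over the alternatives other than a 1.5-fold minimum), and it was called in 5 of the alternatives. Ighm was at 2238, 2337 and 2262 against 2080.1, 2159 and 2147 CPM (-0.10 ± 0.02, adjusted p = 0.00391). Ighg3 was at 33.3, 43.02 and 37.3 against 24.8, 22.1 and 26.7 CPM (-0.63 ± 0.11). Ighg2b went the other way, at 128, 132 and 130.3 against 166, 175 and 158 CPM (0.35 ± 0.07, adjusted p = 0.00789). The differences of Ighg2c (0.45 ± 0.18), Ighg1 (0.22 ± 0.19), Ighd (-0.08 ± 0.11) and Ighe (0.15 ± 0.54) were not called. The γ genes resemble one another, so the division of reads between them is uncertain, and counts do not separate germline from switched transcripts. Of the light chain genes, Igkc was higher, at 745, 726 and 757 against 836, 864 and 849 CPM (0.19 ± 0.03), whereas Iglc3 (-0.71 ± 0.10) and Iglc1 (-0.74 ± 0.15) were lower. Iglc3 overlaps 2010309G21Rik on the opposite strand. Jchain, the joining chain gene of polymeric IgM and IgA, was also lower (-0.55 ± 0.14), a call that ended in 4 of the 6 fits without a library (adjusted p up to 0.112).

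**Figure D2:**
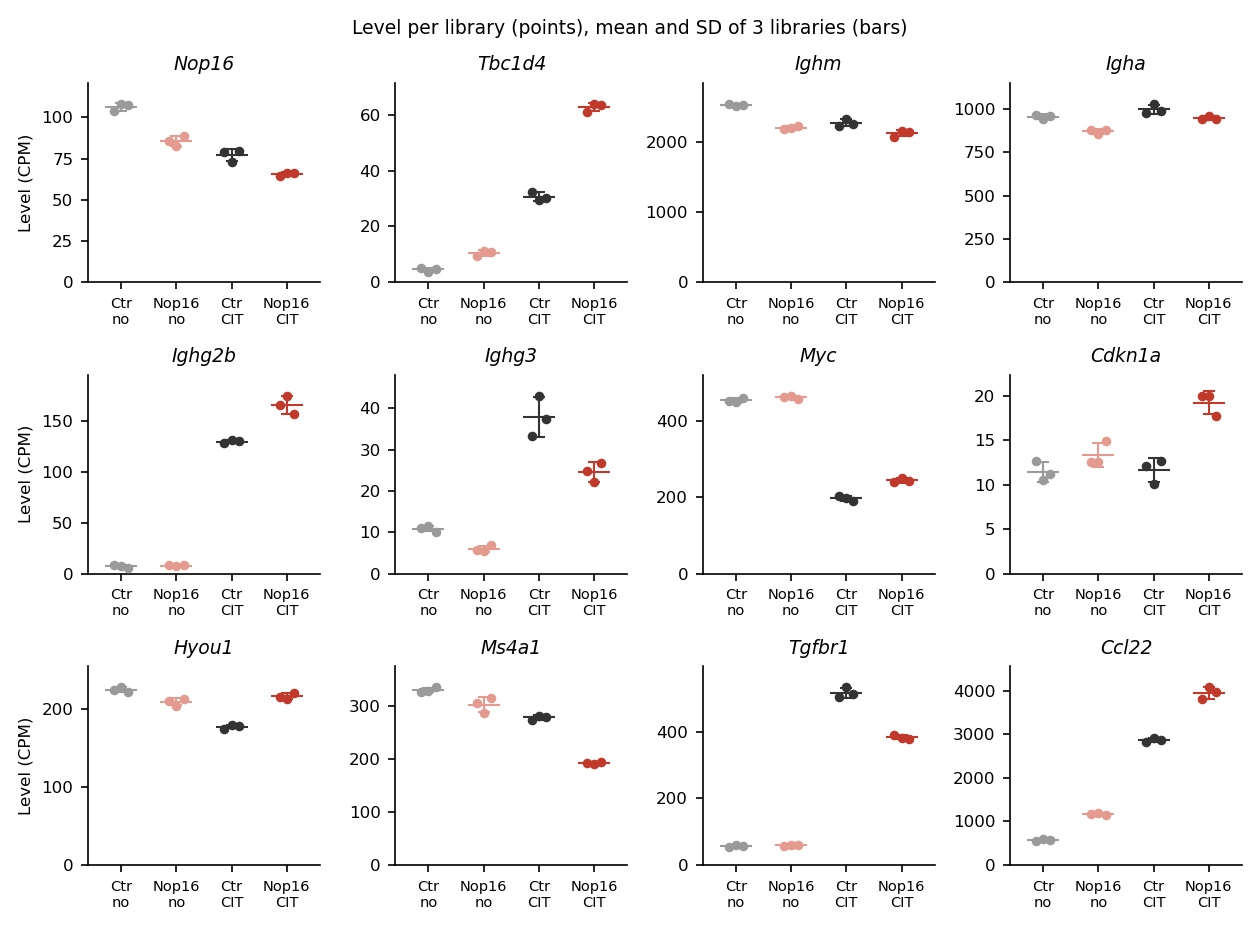
Levels (CPM, vertical axes from 0) of 12 genes in each library of the 4 groups, with the mean and SD of 3 libraries. After CIT the 3 sgNop16 libraries lie above the 3 sgCtr libraries for Tbc1d4, Ighg2b, Myc, Cdkn1a, Hyou1 and Ccl22, and below them for Nop16, Ighm, Igha, Ighg3, Ms4a1 and Tgfbr1.

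Many genes of ribosome production were higher in sgNop16_CIT cells. Ribosomes are built in the nucleolus, where RNA polymerase I makes the pre-rRNA, snoRNPs modify it, the processome cuts it for the small subunit and assembly factors such as NOP16 shape the large subunit. Of 108 tested genes in these 4 groups 32 were called higher and 2 lower. That is 31.5% in all, beside 6.16% of all tested genes, and the 2 lower ones were Nop16 itself and Ubtf. The median difference was 0.11, and 100 of the 108 were above 0, as were 51.8% of all tested genes. All 3 sgNop16_CIT libraries lay above all 3 sgCtr_CIT libraries for 68 of them, and for 13.2% of all tested genes. By role, 12 of 40 large subunit assembly genes, 13 of 39 processome genes, 5 of 17 RNA polymerase I and nucleolar genes and 3 of 13 snoRNP genes were called higher. Over all tested genes 3.39% were called higher. Nop56, a snoRNP protein gene, belongs to 2 of these lists. The fits without 1 library all lowered the counts of the larger lists, to between 6 and 10 large subunit genes and between 6 and 9 processome genes. The lowest counts were those without sgNop16_CIT library 2. The 3 snoRNP genes became between 1 (without sgCtr_CIT library 3) and 4, and the call of Nhp2, a core protein of H/ACA snoRNPs (0.14 ± 0.04), ended in 4 of those 6 fits. The call of Ubtf ended in 5 of those 6 fits (adjusted p up to 0.153).

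The leading large subunit genes were Mybbp1a, a MYB-binding nucleolar protein gene at 671, 675 and 676 against 763, 753 and 748 CPM (0.16 ± 0.02), and Nop56 at 387, 387 and 377 against 435, 429.9 and 446 CPM (0.19 ± 0.02). Nop2, an rRNA methyltransferase gene, was at 131, 145 and 137 against 169, 163 and 161 CPM (0.25 ± 0.04), and Rrp1b had 0.21 ± 0.03. The libraries of the guides did not overlap for these genes, as for 1031 of the 1034 called genes and 24.1% of all tested genes. In the processome group Rrp12 was at 75.2, 76.1 and 75.5 against 89.9, 104 and 102 CPM (0.38 ± 0.05), the largest difference above 0 among the 108 genes, and Utp20 had 0.23 ± 0.04, Krr1 0.21 ± 0.04 and Wdr43 0.16 ± 0.03. Polr1b, the second largest subunit of RNA polymerase I, was at 83.8, 79.3 and 84.2 against 96.9, 105 and 101 CPM (0.29 ± 0.04). The largest subunit gene Polr1a had 0.15 ± 0.03, the nucleolar helicase gene Ddx21 0.17 ± 0.03 and the nucleolar phosphoprotein gene Nolc1 0.15 ± 0.02. Among the snoRNP genes Ruvbl2, an ATPase of their assembly, had 0.18 ± 0.04, a call that ended without sgCtr_CIT library 3 (adjusted p = 0.0503). Rrp1b, Krr1, Wdr43, Polr1a, Mybbp1a and Ruvbl2 overlap exons of a gene on the opposite strand, and Nop56 hosts snoRNA genes on its own strand. Of 81 tested genes of cytosolic ribosomal proteins, the parts of the finished ribosome, 2 were higher (Rplp0 at 0.09 ± 0.01 and Rps27l, a p53 target, at 0.25 ± 0.04) and 3 lower. That is 6.17% in all, beside 6.16% of all tested genes, and their median was 0.00088.

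MYC drives many of these genes through the E-box CACGTG, so the 250 bases before the first listed start of each gene were searched for it in the RefSeq promoter table (GRCm38.p6), on both strands. The motif was present in 6 of 90 ribosome production genes with a promoter window (6.67%) and in 839 of 10301 tested genes (8.14%). The 2 uncalled genes that hold it are Nol11 and Imp4. The 4 genes called higher that hold it are shown to let the match and its distance be read, with the E-box in capitals, the genome's coordinates and strand in parentheses, and each sequence running 5′ to 3′ towards the gene.
Nop2 (chr6:125131809-125131842, plus strand): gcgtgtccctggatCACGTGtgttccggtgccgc
Rrn3 (chr16:13780637-13780670, plus strand): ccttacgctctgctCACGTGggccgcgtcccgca
Wdr46 (chr17:33940697-33940722, plus strand): tcaagggagtttcgCACGTGgatcgt
Utp18 (chr11:93885767-93885800, minus strand): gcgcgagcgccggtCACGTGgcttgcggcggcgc
The E-box begins 60 bases before the start in Nop2, 48 in Rrn3, 12 in Wdr46 and 20 in Utp18. Rrn3 (a polymerase I initiation factor gene) holds another one further upstream. A match is a description of letters and not a binding site.

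Myc itself and a few growth regulators moved with the Nop16 guide. Myc was at 204, 198 and 189.6 CPM in sgCtr_CIT and at 239, 251 and 244 CPM in sgNop16_CIT (0.31 ± 0.03, adjusted p = 1.25e-05). Without CIT the guides were at 454, 449.5 and 462 and 463, 467 and 458 CPM, and the interaction was called (0.29 ± 0.04, adjusted p = 0.00183). Myb was at 61.7, 64.9 and 63.4 against 73.95, 75.5 and 76.99 CPM after CIT (0.25 ± 0.04) and had the opposite difference without it (-0.21 ± 0.04). Ccnd2, a G1 cyclin gene, was at 106, 104 and 101 against 138, 137 and 135 CPM (0.40 ± 0.05), and Mxd4, a MAX partner that opposes MYC, was lower with -0.34 ± 0.06. Myb, Ccnd2 and Mxd4 each overlap a gene on the opposite strand. Of 43 tested S phase genes 0 were higher in edgeR or DESeq2 (1 at an unadjusted p under 0.05). In edgeR 2 were lower (E2f2 and Uhrf1), with 4 lower in DESeq2 and 7 at an unadjusted p under 0.05. Of 35 mitosis genes 1 was higher (Pttg1) and 1 lower (Mki67). The shares called in edgeR, 4.65% for S phase and 5.71% for mitosis, lay near the 6.16% of all tested genes. The calls of these 4 genes ended in 4, 6, 2 and 4 of the 6 fits without a library, in the order E2f2, Uhrf1, Pttg1 and Mki67. Without CIT 7 of the 43 S phase genes and 4 of the 35 mitosis genes were lower, beside 1.53% of all tested genes. In that state 0 genes of either list were higher, beside 1.79%.

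Genes of amino acid supply and the integrated stress response were among those higher with the Nop16 guide. In this pathway phosphorylated eIF2 lets the factor ATF4 be made, which turns on amino acid transport, amino acid synthesis and tRNA charging. Of 29 tested genes 13 were called higher and 1 lower, beside 3.39% and 2.77% of all tested genes, with a median of 0.13. Atf4 was at 195, 196 and 193 CPM in sgCtr_CIT and at 221, 236 and 219 CPM in sgNop16_CIT (0.21 ± 0.03, adjusted p = 0.000828). Atf5, the gene of a related factor that overlaps Il4i1 and Nup62 on the opposite strand, was at 49.7, 54.6 and 53.9 against 69.6, 63.6 and 66.7 CPM (0.34 ± 0.05). Sesn2, a stress-induced inhibitor of mTORC1 that p53 also induces, was at 49.7, 49.6 and 46.6 against 69.4, 72.1 and 66.2 CPM (0.51 ± 0.07). Slc3a2, the heavy chain of amino acid exchangers, was at 126, 133 and 134 against 164, 158 and 163 CPM (0.30 ± 0.04). The others called higher were the factor gene Ddit3 (0.42), the transporters Slc7a5 and Slc7a1 (0.16 each), the enzymes Cth (0.30), Mthfd2 (0.15), Shmt2 (0.10) and Phgdh (0.09), and the tRNA synthetases Wars (0.21) and Gars (0.14). The member that went the other way was Ddit4, another mTORC1 inhibitor, at 48.2, 47.8 and 46.2 against 35.6, 33.7 and 32.7 CPM (-0.48 ± 0.07). The count of genes called higher fell to between 6 (without sgCtr_CIT library 3) and 9 in the fits that left out a library. Of these 29 genes 10 were called higher in the interaction, against 0.881% of all tested genes.

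Several chaperones of the endoplasmic reticulum, which fold secreted proteins such as antibodies and belong to the unfolded protein response, were also higher. Of 24 tested genes 7 were called higher and 2 lower (Syvn1 and Xbp1), beside 3.39% and 2.77% of all tested genes. The median was 0.10. Hyou1 was at 175, 179 and 179 CPM in sgCtr_CIT and at 216, 213 and 221 CPM in sgNop16_CIT (0.29 ± 0.03, adjusted p = 2.12e-05). Sdf2l1, a partner of the chaperone BiP, was at 78.2, 76.7 and 81.4 against 98.1, 93.9 and 95.2 CPM (0.28 ± 0.04). Hsp90b1 (GRP94) was at 826, 845 and 829.8 against 949.9, 949.9 and 929.5 CPM (0.18 ± 0.02). Calr (calreticulin) was at 1001, 1001 and 1015 against 1095, 1127 and 1133 CPM (0.15 ± 0.02). Pdia3 had 0.10 ± 0.02, Hspa5 (BiP) 0.12 and Dnajb11 0.14. The libraries of the guides did not overlap for Hyou1, Sdf2l1, Hsp90b1 or Calr, as for 1031 of the 1034 called genes and 24.1% of all tested genes. Xbp1 and Syvn1, which act upstream and in degradation, were lower by 0.13 and 0.17 on the log2 scale, calls that ended in 5 and 3 of the 6 fits without a library. Without CIT 0 genes of the list were higher and 3 lower, beside 1.79% and 1.53% of all tested genes, and 8 of 24 were higher in the interaction, beside 0.881%. Hsp90b1 shares exons with Gm15344 and Gm25745 on its own strand.

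The ER stress element (CCAAT, 9 bases of any kind and CCACG), to which ATF6 and NF-Y bind, was found in the 250 bases before the start in 9 of 20 genes of this list with a promoter window and in 16 of 10301 tested genes (0.155%). It was present in 3 of the 6 genes called higher that have a window, in Syvn1, which was called lower, and in the uncalled genes Canx, Pdia6, Dnajc3, Creld2 and Derl3. The 3 that were higher are shown here with the element in capitals in the strand of the gene, where it may read in reverse complement.
Hspa5 (chr2:34772011-34772057, plus strand): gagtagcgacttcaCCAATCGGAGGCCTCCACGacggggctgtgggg
Hsp90b1 (chr10:86705624-86705670, minus strand): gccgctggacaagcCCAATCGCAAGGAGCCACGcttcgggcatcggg
Calr (chr8:84847061-84847107, minus strand): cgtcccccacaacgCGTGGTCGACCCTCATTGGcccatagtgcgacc
Hsp90b1 holds another copy closer to its start. The composite site of ATF4 and C/EBP factors, TGATGNAA, was in 6 of 25 integrated stress response genes (24.0%) and in 1.98% of tested genes with a window. Of the 10 genes of that list called higher with a window, 1 held it, Gars, a tRNA synthetase gene.
Gars (chr6:55037957-55037992, plus strand): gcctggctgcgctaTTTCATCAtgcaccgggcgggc
The NF-κB letters (GGG, 5 bases of any kind and CC) were in 60.5% of windows of tested genes and in 31 of 41 CD40 pathway genes, and GAGGAAGT, a core of PU.1 and SPIB sites, was in 2.68% of windows and in 0 of 13 B cell identity genes.

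**Figure D3:**
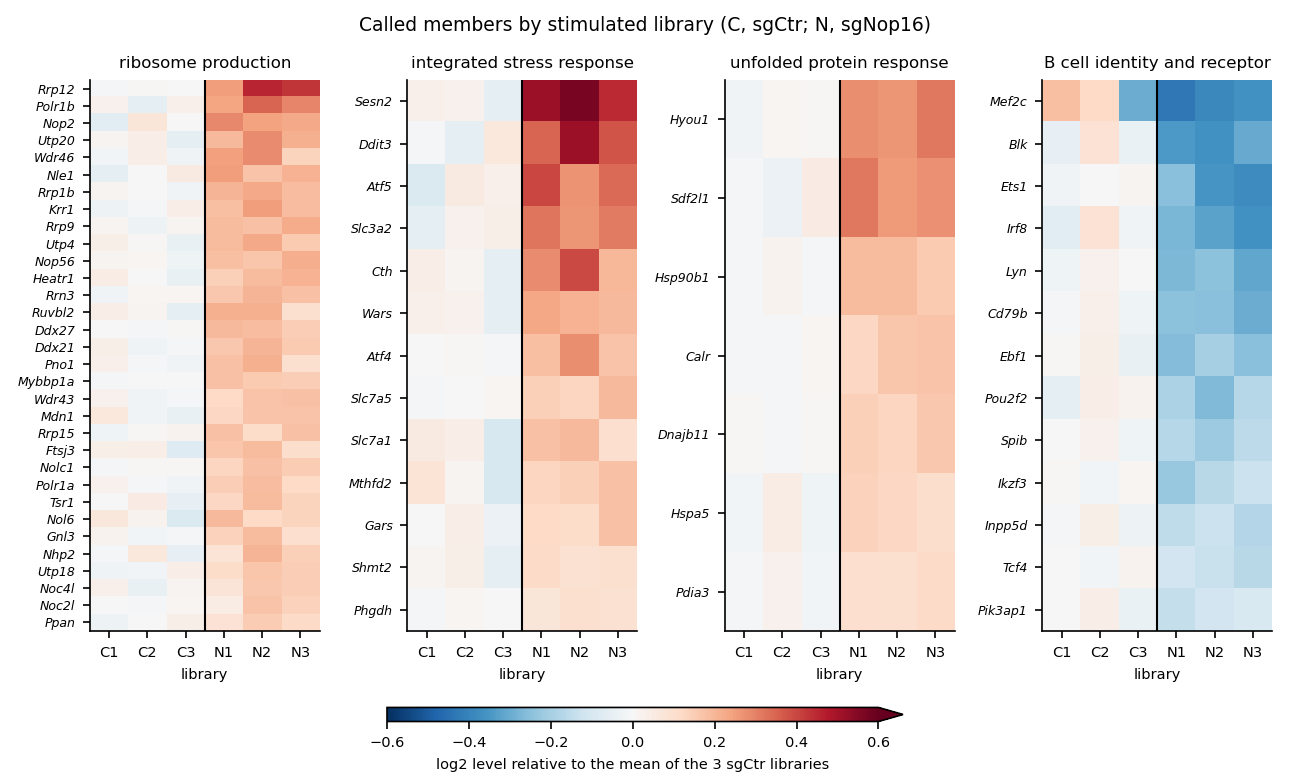
Log2 level of called genes in each stimulated library relative to the mean of the 3 sgCtr_CIT libraries (colour), with sgCtr_CIT libraries left (C1 to C3) and sgNop16_CIT libraries right (N1 to N3) of the line. The 4 panels hold genes called higher in ribosome production, the integrated stress response and the unfolded protein response, and genes called lower in B cell identity and receptor signalling; the scale ends at 0.6.

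Targets of p53 split in direction. Trp53 itself was at 240.2, 231 and 249 CPM in sgCtr_CIT and at 279, 287 and 271 CPM in sgNop16_CIT (0.22 ± 0.03). Of 41 tested genes of the list 8 were called higher and 3 lower, beside 3.39% and 2.77% of all tested genes, with a median of 0.08. Cdkn1a, the p21 cell cycle inhibitor gene and a classic target, was at 12.1, 10.1 and 12.7 against 19.97, 20.00 and 17.8 CPM (0.73 ± 0.12, adjusted p = 0.00115). Pmaip1 (NOXA) was at 109, 110.1 and 101 against 155, 144 and 149.6 CPM (0.49 ± 0.05). The antiproliferative target Btg2 was lower, at 71.5, 70.5 and 73.5 against 54.03, 47.03 and 47.2 CPM (-0.54 ± 0.06), as were Trp53inp1 (-0.59 ± 0.14) and Plk2 (-0.77 ± 0.19), whose calls each ended in 3 of the 6 fits without a library. The number called higher lay between 5 (without sgCtr_CIT library 1 or sgNop16_CIT library 3) and 8 in those fits and the number called lower between 1 (without sgNop16_CIT library 3) and 3, and Cdkn1a overlaps a gene on the opposite strand.

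In the BCL2 family, which sets the balance of survival and death at mitochondria, 6 of 15 tested genes were higher and 1 was lower. Over all tested genes 3.39% were higher and 2.77% lower. The survival genes of the A1 cluster moved together, with Bcl2a1a at 67.5, 65.7 and 65.8 against 84.4, 86.8 and 82.8 CPM (0.35 ± 0.05), Bcl2a1b at 0.25 ± 0.04 and Bcl2a1d at 0.26 ± 0.04. These copies are nearly identical in sequence, so their counts are not independent. The survival gene Bcl2l1 had 0.32. Mcl1, another survival gene, was at 375, 376 and 361 against 316, 310.5 and 318 CPM (-0.24 ± 0.03). Of the death genes Pmaip1 and Bax (0.18) were higher. The family's median of 0.11 lay between 0.0076 (without sgCtr_CIT library 1) and 0.21 (without sgCtr_CIT library 2).

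Several transcription factors that maintain B cell identity were lower with the Nop16 guide. Of 18 tested factors 0 were higher (0 also at an unadjusted p under 0.05 and with DESeq2) and 8 lower, against 2.77% of all genes, and 17 had a difference below 0, as had 48.1% of all genes. The median was -0.12, and 7 or 8 factors were lower in each fit without 1 library. Ets1 was at 208, 211 and 213 CPM in sgCtr_CIT and at 177, 165 and 162 CPM in sgNop16_CIT (-0.33 ± 0.03). Irf8 was at 261, 290.2 and 269 against 226, 219 and 213 CPM (-0.32 ± 0.04). Spib was at 578, 589 and 568 against 514, 496 and 518 CPM (-0.18 ± 0.02), and Pou2f2 (OCT2) was at 262, 280.4 and 277 against 239.8, 227 and 242 CPM (-0.21 ± 0.04). Ebf1, an early B lineage factor, had -0.24 ± 0.04. Mef2c (-0.41), Ikzf3 (-0.17) and Tcf4 (-0.14) were called as well. For each of Ets1, Irf8, Spib, Pou2f2 and Ebf1 all sgNop16_CIT libraries lay below all sgCtr_CIT libraries, as they did for 10.9% of all tested genes.

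Surface and signalling genes of B cells were called in both directions. Of the 8 B cell markers 0 were higher and 4 lower, beside 3.39% and 2.77% of all tested genes, with a median of -0.17. The lower ones were Ms4a1, Blk, Cd79b and Ebf1. Several of these genes are also members of the identity and receptor lists. Ms4a1, which encodes CD20, was at 274, 282 and 279 against 192, 190.2 and 193 CPM (-0.54 ± 0.03, adjusted p = 1.03e-07), without overlap of libraries. Cd79b, a signalling chain of the B cell receptor, was at 228, 234 and 225 against 193, 193 and 186 CPM (-0.26 ± 0.03). Of 26 tested genes of the receptor and its signalling 2 were higher and 5 lower, beside 3.39% and 2.77% of all tested genes, and DESeq2 called 4 higher and 5 lower. The kinase genes Blk (-0.34 ± 0.04) and Lyn (-0.28 ± 0.04) and the phosphatase gene Inpp5d (-0.15 ± 0.03) were lower, and the inhibitory receptor gene Cd5 (0.23 ± 0.05) and the phosphatase gene Ptpn6 (0.11 ± 0.02) were higher. The calls of Cd5 and Ptpn6 ended in 2 and 1 of the 6 fits without a library (adjusted p up to 0.0621 and 0.0501). Of 16 plasma cell genes 2 were higher, Irf4 (0.18 ± 0.04) and Mzb1 (0.11 ± 0.03), and 5 lower, among them Cd38 (-0.77 ± 0.16), Creb3l2 (-0.29 ± 0.07) and Jchain. The share called was 43.8%, beside 6.16% of all tested genes. The call of Mzb1 ended in 6 of the 6 fits without a library (adjusted p up to 0.147), with a replicate block, with library totals and with only the groups compared, that of Irf4 in 3 of the 6 and that of Creb3l2 in 4. These fits called 0 or 1 of the 16 genes higher, 0 without sgCtr_CIT library 1 or 3 or sgNop16_CIT library 2, and 1 gene was called lower without sgCtr_CIT library 1 or 3 or without sgNop16_CIT library 3.

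The MHC class II pathway presents antigen to helper T cells. Of its 17 tested genes 0 were higher in edgeR (1 at an unadjusted p under 0.05 and 1 with DESeq2). In edgeR 3 of the 17 were lower, beside 2.77% of all tested genes. The lower ones were the genes of the modulator DO, with H2-Ob at 134, 139.7 and 136 against 93.2, 101 and 94.3 CPM (-0.51 ± 0.05) and H2-Oa at 52.5, 55.7 and 59.6 against 42.9, 39.4 and 42.6 CPM (-0.43 ± 0.06), and the protease gene Lgmn at 56.2, 54.5 and 54.7 against 36.01, 42.3 and 39.8 CPM (-0.48 ± 0.05). The antigen-presenting chains and the transactivator Ciita were not called after CIT. H2-Eb1, for instance, was at 897, 955 and 920.0 against 940.4, 919.5 and 953 CPM, and the libraries overlapped. Without CIT 9 of the 17 genes were higher and 1 lower, beside 1.79% and 1.53% of all tested genes. In the interaction 0 were higher and 9 lower, beside 0.881% and 1.25% of all tested genes. Of 19 MHC class I pathway genes 4 were higher, H2-K1 (0.10 ± 0.03), H2-D1 (0.11 ± 0.03), Calr and Pdia3, and 1 was lower, the proteasome activator gene Psme1 (-0.18 ± 0.04). The share called was 26.3%, beside 6.16% of all tested genes. The calls of H2-K1, H2-D1 and Psme1 ended in 3, 5 and 4 of the 6 fits without a library, and H2-K1 and H2-D1 resemble each other.

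**Figure D4:**
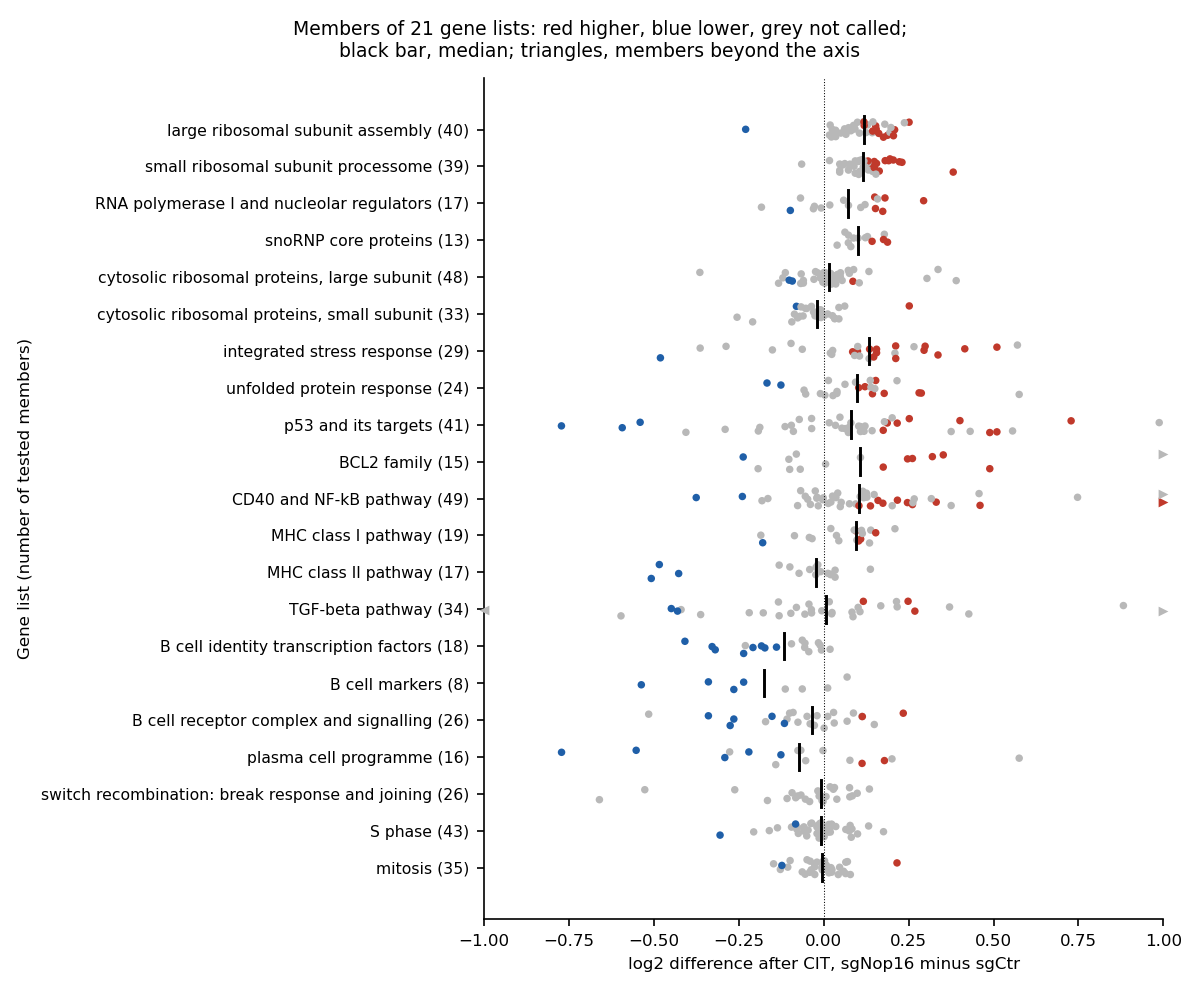
Log2 difference of each tested member of 21 gene lists after CIT (horizontal axis), with medians as black bars and 5 members beyond the axis as triangles. Members of the ribosome production lists lie mostly right of 0 and the B cell identity factors mostly left of 0, while ribosomal protein, break response and joining, S phase and mitosis genes scatter around 0.

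The pathways of the 3 stimuli showed mixed differences. Of 49 tested genes of the CD40 and NF-κB pathway 10 were higher and 2 lower, beside 3.39% and 2.77% of all tested genes. The median was 0.10, and between 7 and 10 were higher in the fits without 1 library. Without CIT 14 of the 49 genes were higher and 0 lower, beside 1.79% and 1.53% of all tested genes. In the interaction 0 were higher and 5 lower, beside 0.881% and 1.25% of all tested genes. Ccl22, a chemokine gene and CD40 target, was at 2837, 2906 and 2872 CPM in sgCtr_CIT and at 3804, 4082 and 3968 CPM in sgNop16_CIT (0.46 ± 0.02, adjusted p = 3.43e-08). The guide difference of Ccl22 without CIT was larger, at 1.02. Among NF-κB subunits Relb was higher, at 96.7, 92.5 and 97.3 against 117, 111 and 111 CPM (0.25 ± 0.04), and Rel was lower, at 291, 293 and 296 against 229, 223 and 227 CPM (-0.38 ± 0.03). The inhibitor gene Nfkbia was at 372, 389 and 389 against 450.2, 439.9 and 447 CPM (0.22 ± 0.03). Marcks was the other member that was lower (-0.24 ± 0.04). For these 5 genes the libraries of the guides did not overlap, as for 1031 of the 1034 called genes and 24.1% of all tested genes.

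TGF-β needs its receptor TGFBR1 for the signal that opens the α region. Tgfbr1 was at 504, 534 and 513 CPM in sgCtr_CIT and at 390.0, 381 and 379.7 CPM in sgNop16_CIT, and the libraries were well apart (-0.43 ± 0.04, adjusted p = 2.86e-06). Without CIT it was at 55.3, 60.5 and 57.1 against 56.8, 59.3 and 60.5 CPM. Id3, a target that inhibits E proteins, was at 64.6, 73.5 and 70.97 against 54.1, 49.2 and 49.96 CPM (-0.45 ± 0.05). In all, 3 of 34 tested genes of this pathway were higher (Junb, Runx2 and Runx3) and 2 lower. The share called was 14.7%, beside 6.16% of all tested genes. Junb, which overlaps Prdx2 on the opposite strand, was at 265, 297 and 291 against 354, 326 and 332 CPM (0.25 ± 0.05). The RUNX calls were weak, with 0.27 ± 0.07 for Runx2 and 0.12 ± 0.03 for Runx3, and ended in 6 and 5 of the 6 fits without a library (adjusted p up to 0.129 and 0.207). Of 26 IL-4 pathway genes 2 were higher (Il2rg and Ccl17) and 2 lower (Bhlhe41 and Xbp1), beside 3.39% and 2.77% of all tested genes. These counts fell to between 0 and 1 in each direction in the fits without 1 library.

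Cytoskeletal and lipid genes gave further differences. Of 38 tested actin and adhesion genes 8 were higher and 1 lower, beside 3.39% and 2.77% of all tested genes. Vim (vimentin) was at 85.2, 85.9 and 77.1 against 109, 98.01 and 106 CPM (0.34 ± 0.06), Lgals1 (galectin 1) at 46.6, 45.7 and 49.9 against 59.9, 59.9 and 64.4 CPM (0.37 ± 0.05), and Flna (filamin A) at 0.23 ± 0.04. Actb (β-actin) was at 3857, 3966 and 3861 against 4163, 4229.8 and 4091 CPM (0.10 ± 0.01). The member that was lower was Itga4, an integrin subunit gene (-0.19 ± 0.03). In lipid synthesis the desaturase genes Scd1, at 382, 363 and 352 against 281, 294 and 266 CPM (-0.38 ± 0.04), and Scd2, at 909.8, 881 and 851 against 677, 691 and 688 CPM (-0.36 ± 0.03), were lower, and Idi1 of the sterol pathway was higher (0.21 ± 0.04). Of 29 genes of this group 2 were higher and 3 lower, 17.2% in all, beside 6.16% of all tested genes. The quiescence gene Btg1 was at 275, 309 and 283 against 229.8, 226 and 239.7 CPM (-0.32 ± 0.05).

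The lists described next gave between 1 and 4 called genes each, to be read beside the 3.39% of all tested genes that were higher and the 2.77% that were lower. Among 22 chemokine and receptor genes 3 were higher, Ccl22, Ccl5 and Ccl17, with 1 to 3 in the fits without 1 library, and 13 cytokine genes gave 1, Tnfsf9 (0.29 ± 0.08), whose call ended in 3 of them. Of 14 RNA exosome genes, which degrade and trim RNA, 2 were higher, Exosc1 at 44.2, 41.6 and 43.1 against 50.7, 53.5 and 55.1 CPM (0.31 ± 0.05) and Dis3 (0.12 ± 0.03), the latter lost in 5 of the 6 fits without a library. Among 28 glycolysis and hypoxia genes 3 were higher, Eno1 (0.12 ± 0.02), Hk2 and Ldha, the call of Hk2 lost in 5 and that of Ldha in 3 of those fits. The 13 PRC2 and H3K27 demethylase genes gave 1 call, Aebp2 (0.16 ± 0.04), and 2 of 13 mitochondrially encoded mRNAs were lower, mt-Nd5 and mt-Co1, each lost in 5 of those fits like Aebp2. Of 25 immediate early genes 3 were higher, Fosl2, Klf6 (0.35 ± 0.06) and Junb, and Btg2 was lower (16.0% called). The call of Fosl2 ended in 5 of the 6 fits and with a replicate block. Of 15 quiescence genes Klf6 was higher and Btg1, Btg2 and Cdkn1b (-0.18 ± 0.05) were lower (26.7% called). The call of Cdkn1b ended in 4 of the 6 fits, with a replicate block and with only the groups compared.

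Without CIT the same guide gave 558 called genes (3.32%), 301 higher (1.79%) and 257 lower (1.53%), in libraries that are not shared with the stimulated comparison. Of the 1034 genes called after CIT 192 were also called without it, which is 18.6% of the stimulated and 34.4% of the unstimulated calls. They had the same direction in 169 cases, 88 higher and 81 lower, and opposite directions in 23. The unstimulated difference had the same sign for 69.2% of the genes called after CIT and for 54.8% of all tested genes. The interaction, which tests whether the guide difference changed with CIT, was called for 358 genes (2.13%), 225 of which were among the 1034. Fits without 1 of their libraries called between 352 and 389 genes in the unstimulated comparison (lowest without sgNop16_no library 3) and between 215 and 277 in the interaction (lowest without sgNop16_no library 1).

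Of the genes with the smallest p in the interaction, 4 that were called in opposite directions in the 2 states and 1 called after CIT and not without it are described here. Cybb, the catalytic subunit of the phagocyte NADPH oxidase, was at 526, 514 and 521 CPM in sgCtr_CIT and at 408, 401 and 404 CPM in sgNop16_CIT (-0.36 ± 0.03), whereas without CIT it was at 320.5, 323 and 307 against 372, 357 and 374 CPM (0.22 ± 0.03). Apoe, an apolipoprotein gene, was at 419, 441 and 444 against 326, 314 and 305 CPM (-0.46 ± 0.03) and had 0.18 ± 0.04 without CIT. Mpeg1 (perforin-2) was at 265, 277 and 257 against 208, 211 and 212 CPM (-0.34 ± 0.03) and had 0.16 ± 0.03 without CIT. Prickle1, a planar polarity gene, had -0.21 ± 0.04 after CIT and 0.74 ± 0.04 without it, and its call after CIT ended in 2 of the 6 fits without a library (adjusted p up to 0.0533). Adssl1, an adenylosuccinate synthase gene, was at 272, 285 and 281 against 187, 180.5 and 189 CPM (-0.59 ± 0.04), with -0.04 ± 0.04 without CIT. The interactions of these 5 genes were called, with values from -0.95 to -0.50.

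**Figure D5:**
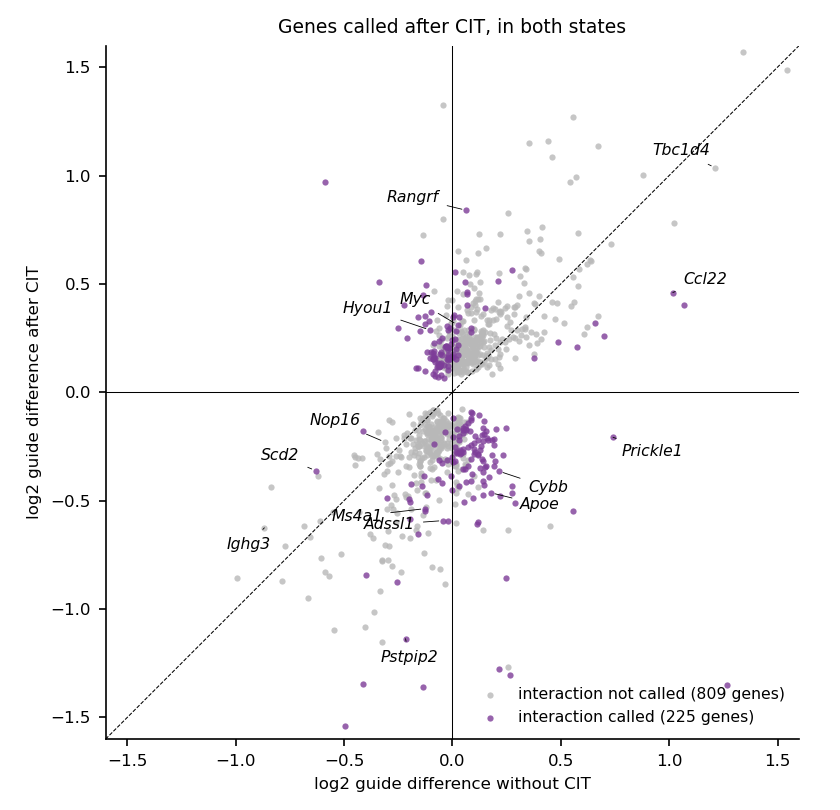
Log2 guide difference after CIT (vertical axis) against that without CIT (horizontal axis) for the genes called after CIT, with 16 genes beyond the axes. The dashed line marks equal differences, and the 225 genes with a called interaction are purple; since the genes were chosen for their difference after CIT, the side of the line on which they lie is largely set by that choice.

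Markers of other cell types were at low levels, Lck aside. Of the lists for T cells, macrophages and neutrophils, fibroblasts, erythroid and epithelial cells, 5 of 14, 4 of 13, 2 of 10, 5 of 9 and 1 of 7 genes passed the count filter. In edgeR 0 of these 17 genes were called, beside 6.16% of all tested genes. For 17 genes a count of 0 is close to that share. An unadjusted p under 0.05 was found for 3 of them, beside 18.1% of all tested genes. DESeq2 called Csf1r higher and Lck lower and gave no adjusted p for 9 of the 17. The 4 tested macrophage and neutrophil markers summed to between 11.9 and 15.1 CPM in sgCtr_CIT and between 15.7 and 18.2 CPM in sgNop16_CIT, with Csf1r at 0.77 ± 0.24 (adjusted p = 0.0788) and Itgam at 0, 0 and 0 against 0, 0.165 and 0 CPM. The kinase gene Lck, listed as a T cell marker, was at 195, 208 and 203 against 186, 189 and 182 CPM, while Cd3d, Cd3e and Cd3g did not pass the filter. The 5 tested T cell markers, most of whose sum is Lck, reached 210.2 to 221.5 CPM in sgCtr_CIT and 199.3 to 203.8 CPM in sgNop16_CIT, and the 5 erythroid ones 4.50 to 5.601 against 5.51 to 7.94 CPM. The 2 fibroblast markers summed to between 3.22 and 4.66 against 3.22 and 5.204 CPM, and the 1 epithelial marker, Krt18, lay between 0.114 and 0.211 against 0 and 0.46 CPM. The part of other cells in the results was not tested.

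The library kit keeps the strand, and the sources used here do not say whether the counting used it. Annotated exons of Atf5, Bcl2l14, Bhlhe41, Ccnd2, Cdkn1a, Csf1r, Dis3, H2-Oa, Hsp90b1, Idi1, Iglc3, Itga4, Junb, Krr1, Lyn, Mfsd4a, mt-Co1, mt-Nd5, Mt2, Mxd4, Myb, Mybbp1a, Nhp2, Nop56, Pdia3, Polr1a, Psme1, Pstpip2, Ptpn6, Rangrf, Rrp1b, Runx2, Ruvbl2, Shld1, Syvn1, Tnfsf9, Vcam1, Wdr43 and Wipf3 overlap those of a gene on the opposite strand, and annotated exons of Bcl2a1b, Hsp90b1, Il2rg, Itgam, Lck, Mzb1, Nop56, Pou2f2, Rnf225, Scd2, Slc45a3 and Trex1 overlap another gene on the same strand, so the reads of each may include those of its partner.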

How the data were processed

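RNA-seq counts per gene were analysed from 12 libraries, 3 per group, and the values the authors deposited are estimated counts, whole numbers per gene that are not normalized. The submitters' processing notes name HISAT2 2.2.1, StringTie 2.2.1 and GRCm39 without their roles. The smallest steps of the deposited counts are about 4, which may be 1 fragment. The sources used here do not state it, so p-values may be affected, and counts divided by 4 were an alternative. Names came from GENCODE M21 (GRCm38), which matched 51948 of 56941 identifiers. The 4993 others held at most 0.365% of a library. Since this build is not the files', no gene coordinates are given, apart from RefSeq promoter windows on GRCm38.p6.

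Values were fitted as counts with edgeR 4.0.16 (R 4.3.3, limma 3.58.1) after filterByExpr with TMM factors, as a model of group means over all 12 libraries. Contrasts were sgNop16 against sgCtr after CIT, the same without CIT, and their interaction. Tests were 2-sided quasi-likelihood F tests with Benjamini-Hochberg adjustment over 16794 genes, and the standard error is the log2 difference divided by the root of F. The fit was tested on simulated data with known changes. Named genes were Nop16, constant genes of the heavy chain, the 12 called genes of largest difference in each direction that reached 5 CPM in the higher group without overlapping libraries (gene model names left out), up to 4 called genes per list and direction with the smallest p (or 2 uncalled ones), and 8 genes with the smallest interaction p. The remaining list genes mentioned were added as called members, and results for a few genes and their lists are not reported here. The members and lists were chosen with earlier results of these data known. Each gene's 250 bases before the start were searched for 5 motifs. Alternatives were RLE size factors, library totals, no low-count filter or 1 of at least 5 CPM in 3 libraries, a replicate block, only the groups compared, DESeq2 1.42.0, a 1.5-fold minimum, counts divided by 4, leaving out each library, and robust dispersion estimates, chosen after seeing the data.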

Additional observations from a re-analysis of the deposited data

Results flagged for a closer look

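The guide difference after CIT differed from that without CIT for 48 of the 164 named genes, by the interaction term of the edgeR model at an adjusted p under 0.05 over all tested genes. Each value that follows is the difference after CIT minus the difference without CIT, on the log2 scale. It was above 0 for 22 genes and below 0 for 26, and for 27 genes the 2 states had opposite signs. These genes were named for their values after CIT, to which the interaction is related.

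Apoe (-0.64), Cybb (-0.58), Irf8 (-0.52), Mpeg1 (-0.50) and Prickle1 (-0.95) were called lower after CIT and higher without it. Myb (0.46) and Mzb1 (0.28) were called higher after CIT and lower without it, but the call of Mzb1 after CIT ended in 6 of the 6 fits without a library and with a replicate block.

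Genes called in the same direction in both states differed in size. Ms4a1 (-0.41) and Pstpip2 (-0.92) had the larger decrease after CIT, and Scd2 (0.27) had the larger decrease without CIT. Bcl2a1d (-0.44) and Ccl22 (-0.56) had the larger increase without CIT.

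In the stress and chaperone lists the interaction was 0.24 for Atf4, 0.45 for Sesn2, 0.21 for Slc3a2, 0.39 for Hyou1, 0.26 for Sdf2l1, 0.17 for Hsp90b1, 0.14 for Calr and 0.12 for Pdia3. For nucleolar and growth genes it was 0.29 for Myc, 0.18 for Mybbp1a, 0.22 for Rrp1b, 0.16 for Nolc1 and 0.15 for Ddx21. The interaction was 0.33 for the exosome gene Exosc1, 0.19 for Trp53 and 0.30 for the p53 target Rps27l. Rangrf had 0.78, Igkc 0.21 and Idi1 0.23. All of these were called higher after CIT and were not called without it.

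Called lower after CIT and not called without it were Trex1 (-1.57), Adamts14 (-0.62), Adssl1 (-0.55), H2-Oa (-0.57), H2-Ob (-0.56), Rel (-0.46), Tgfbr1 (-0.46), Btg1 (-0.46), Id3 (-0.45), Blk (-0.41), Scd1 (-0.25), Itga4 (-0.24), Pou2f2 (-0.21), Mcl1 (-0.15) and Spib (-0.15). H2-Eb1 (-0.39) was called higher without CIT and not after it, and Lck (-0.24) was called in neither state.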

How the results depend on the processing

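Of the 1034 genes called, 1025 were also called with RLE size factors, 947 of 979 with library totals, 744 of 744 with no low-count filter, 1001 of 1243 at a minimum of 5 CPM in 3 libraries, 832 of 947 with only the groups compared, 1024 of 1539 with DESeq2, 1024 of 1236 with counts divided by 4 and 1019 of 1195 with robust dispersion estimates, which were chosen after seeing the data. DESeq2 called 889 genes higher, 927 genes without CIT and 767 in the interaction, and no low-count filter left 207 in the interaction. Against a 1.5-fold minimum 2 genes were called after CIT (0 higher, 2 lower), 2 without CIT and 1 in the interaction, and Nop16 (-0.23) had an adjusted p of 1. The replicate numbers did not pair the samples: deviations of same-numbered libraries correlated between -0.021 and 0.023 and those of other numbers between -0.049 and 0.033, and 1 of 3 libraries correlated best with its own number. With a replicate block 920 genes were called, 885 of them also without it.

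Fits that left out 1 library called 617 to 723 genes (316 to 394 higher, 297 to 329 lower), 352 to 389 without CIT and 215 to 277 in the interaction. List medians lay between -0.13 and -0.095 for B cell identity factors, 0.0076 and 0.21 for the BCL2 family, 0.071 and 0.10 for CD40, 0.069 and 0.095 for MHC class I, -0.036 and 0.0064 for MHC class II, 0.080 and 0.11 for p53, -0.12 and -0.028 for plasma cell genes, and -0.18 and -0.055 for quiescence genes. With library totals the median was -0.13 for B cell identity factors and -0.013 for mitosis, with only the groups compared it was -0.12 for B cell identity factors, and with counts divided by 4 it was -0.18 for quiescence genes. At a minimum of 5 CPM, where fewer members were tested, it was 0.048 for actin genes, -0.10 for B cell identity factors, 0.18 for chemokines, -0.079 for heavy chain genes, -0.13 for plasma cell genes, -0.18 for quiescence genes and 0.045 for the RNA exosome. The cause of the other shifts was not tested.

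Over 163 named genes other than Nop16 and 2583 combinations with an alternative, 2151 kept direction and call, 408 lost the call, 20 gained one and 4 reversed. The reversed ones are uncalled. Without 1 library Ighe ranged from -0.016 to 0.32 and Pdgfrb from -0.37 to 0.10, with reversals at H2-Eb1 -0.00029 without sgCtr_CIT library 1, Pdgfrb 0.039 without sgCtr_CIT library 2 and 0.10 without sgNop16_CIT library 1, and Ighe -0.016 without sgNop16_CIT library 1. Itgam gave no value without sgNop16_CIT library 2, which holds its only counts after CIT. Depth limits genes of low count, and the standard error was 0.54 for Ighe beside 0.02 for Ighm.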
